A study of Rattus norvegicus with 18 samples.

Results

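Described here are 10 genes of rat brain, Serhl2, Tceal7, Pxmp4, Myoc, Tnfaip6, Zap70, Defb17, Trappc6a, Lgals7 and Lpar6. In each, the difference between the arrays labelled SHRSP and SHR turns over between 3 and 6 weeks of age. Other genes do so too. These 10 were named in advance from that difference and found on the arrays by gene name or by the current symbol of the probe's transcript. All 10 were measured, with 12 probes, out of 21206 genes tested and 30367 probes on the array. Total RNA of whole brains was hybridised to Agilent arrays with a single dye, one array per sample. Of the 3 strains, Wistar-Kyoto (WKY) has normal blood pressure, SHR is the spontaneously hypertensive rat and SHRSP its stroke-prone line, and brains of each were taken at 3 and at 6 weeks, with 3 biological replicates in each of the 6 groups. No group was treated, and the animals' sex, and whether a replicate was 1 animal or a pool, are not given in the sources used here. With 3 arrays in a group, the number of arrays limits how precise any value is.

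These genes belong to unrelated families. Serhl2 is a predicted serine hydrolase and Pxmp4 a protein of the peroxisomal membrane. Tceal7 is an X-linked gene of the transcription elongation factor A-like family, which sits among the related Bex genes. Myoc codes for myocilin, a secreted glycoprotein best known from glaucoma, and Tnfaip6 for TSG-6, a secreted hyaluronan-binding protein that inflammatory cytokines induce. Zap70 is the kinase that carries the signal of the T cell receptor, Defb17 a beta-defensin, one of the small antimicrobial peptides of epithelia, and Lgals7 is galectin-7, a sugar-binding protein of stratified epithelium. Lpar6 is a receptor for lysophosphatidic acid, and Trappc6a a subunit of the TRAPP complexes that tether transport vesicles. SHR and SHRSP were both bred from WKY stock for high blood pressure, SHRSP for stroke as well, so the strains also differ at many inherited variants.

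Each probe is a designed oligonucleotide of 60 bases, and its place is given on the rn4 build that the array files use. Serhl2 was read at chr7:121146515-121146574, Zap70 at chr9:35714961-35715020, Myoc at chr13:78314112-78314171 and Lpar6 at chr15:53877189-53877248. Lgals7 was read at chr1:83969956-83970015, and Defb17 on the minus strand at chr9:17117191-17117250. The Pxmp4 probe, on the minus strand, covers chr3:145062012-145067554, a span of 5543 bases for 60 probe bases, so its sequence is split over the genome. The files give no place for the Tnfaip6 probe. Tceal7 and Trappc6a have 2 probes each: the brighter one, used for the values of the gene, lies at chrX:123539678-123539737 and chr1:78869049-78869108, and the second at chrX:123539022-123539081 and chr1:78867557-78867616. The 9 placed genes thus lie on 7 chromosomes, with Lgals7 and Trappc6a 5.1 Mb apart on chromosome 1 and Zap70 and Defb17 18.6 Mb apart on chromosome 9. Exonic or intronic position of the probes was not analysed here.

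Probe sequences are shown 5′ to 3′ in lower case for the gene with the largest difference among those measured in all groups (Serhl2), the gene that was at background in most groups (Defb17), the split probe (Pxmp4) and the second probes that repeat a gene's pattern with an independent sequence (Tceal7 and Trappc6a).
Serhl2: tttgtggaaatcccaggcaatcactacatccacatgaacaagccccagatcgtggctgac
Defb17: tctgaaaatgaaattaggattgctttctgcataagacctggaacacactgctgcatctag
Pxmp4: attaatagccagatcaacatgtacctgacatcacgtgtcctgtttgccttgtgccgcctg
Tceal7, second probe: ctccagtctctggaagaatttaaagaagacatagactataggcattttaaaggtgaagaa
Trappc6a, second probe: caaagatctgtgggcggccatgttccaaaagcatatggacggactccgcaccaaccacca

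Some facts of the whole series bear on these values. Median intensities of the arrays ran from 354 to 436, between 81.8% and 87.5% of spots were well above background, no spot was saturated (0 on every array), and replicate arrays correlated across genes with r from 0.9932 to 0.9976. All listed markers of neurons (8 of 8), astrocytes (6 of 6), oligodendrocytes (7 of 7) and microglia (8 of 8) were well above background on all 18 arrays. The summed level of pituitary markers ranged from 0.06 to 6.22 over the 3 SHRSP arrays at 6 weeks and from -0.43 to 2.54 over the 3 SHR arrays at 3 weeks, so single arrays stand apart in pituitary genes. The 5 slides do not hold the groups evenly: at 6 weeks the SHR arrays fill slide 4 and the SHRSP arrays slide 5, scanned on different days, so that at this age label, slide and scan day cannot be told apart. At 3 weeks slide 2 holds 2 SHR and 2 SHRSP arrays.

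All values below are log2 signals relative to the 75th percentile of the array, so 0 is a bright spot and each step of -1 is a 2-fold lower signal; levels of different probes are not compared. The genes fell into 2 sets. In 5 of them the 3-week arrays labelled SHR and the 6-week arrays labelled SHRSP stood apart from WKY: Serhl2, Tceal7 and Pxmp4 were low there, and Myoc and Tnfaip6 high. For the other 5 it was the 3-week arrays labelled SHRSP and the 6-week arrays labelled SHR: Zap70, Defb17 and Trappc6a were high there, and Lgals7 and Lpar6 low. The SHR and SHRSP arrays did not overlap at either age in 10 of 10 genes, where 20.1% of all genes did not overlap at 3 weeks and 53.3% at 6 weeks. The genes were chosen on this difference, so the count is a description and nothing is read from it, and the differences that follow carry standard errors (SE) but no test. The rule names these genes and sets no threshold. They are part of a larger group of genes that turned over, which is counted over all genes below.

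**Figure D1:**
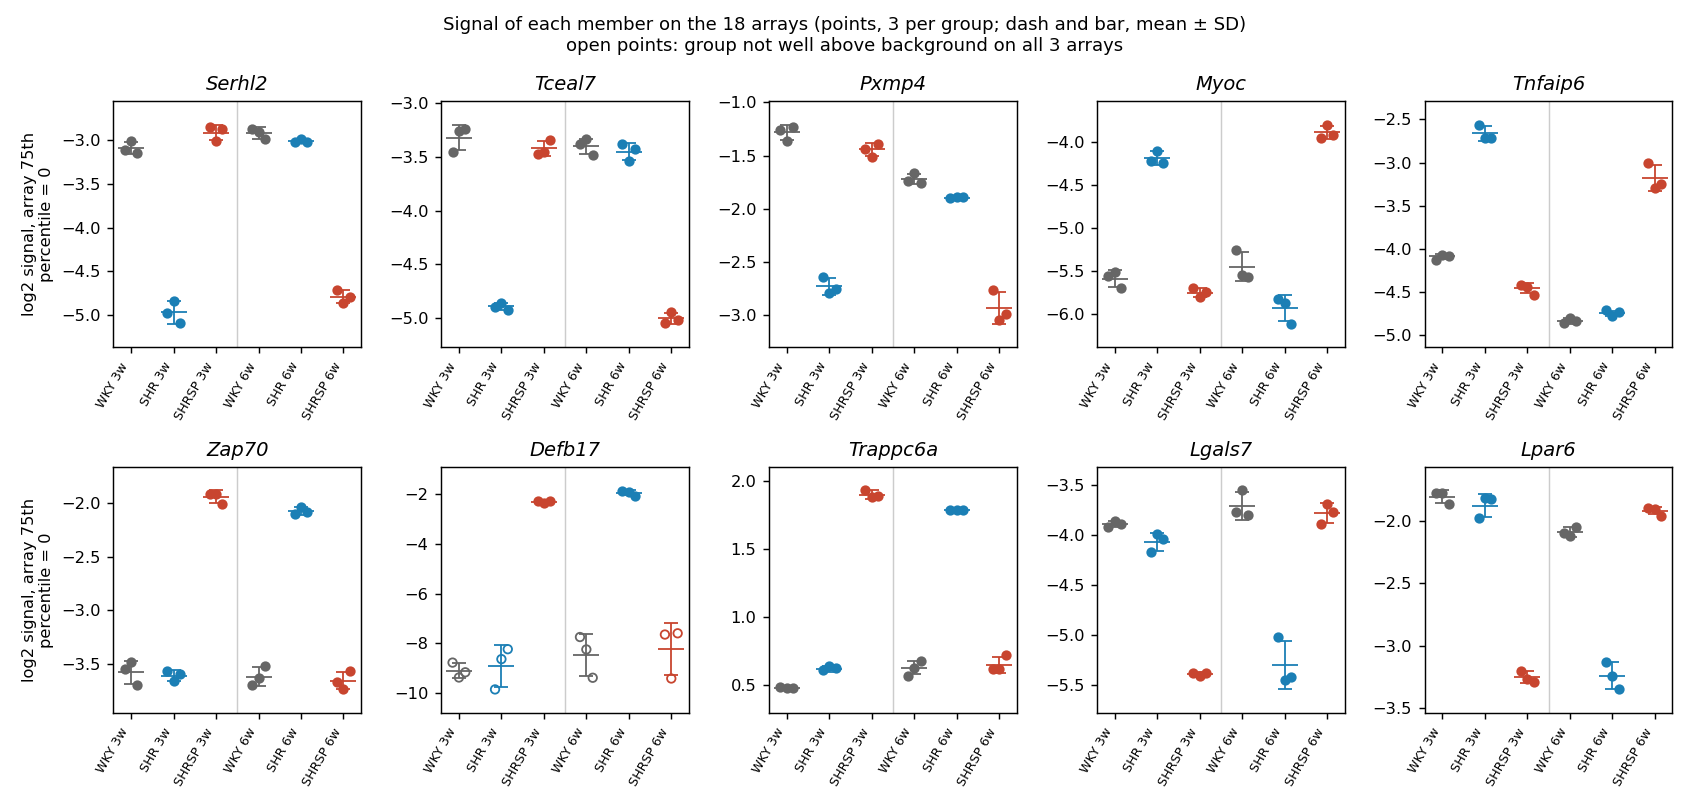
Log2 signal of the 10 genes (vertical axis, the array's 75th percentile at 0; the scale differs between panels) on the 18 arrays by group (horizontal axis), with points for arrays and dash and bar for the mean ± SD of 3. In the upper row the SHR arrays at 3 weeks and the SHRSP arrays at 6 weeks stand apart, and in the lower row the SHRSP arrays at 3 weeks and the SHR arrays at 6 weeks; open points mark groups not well above background on all 3 arrays.

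Serhl2, the predicted hydrolase, measured -3.11, -3.01 and -3.14 on the WKY arrays at 3 weeks, -4.98, -4.84 and -5.09 on those labelled SHR and -2.85, -3.01 and -2.87 on those labelled SHRSP. At 6 weeks it measured -2.87, -2.90 and -2.99 in WKY, -3.02, -2.98 and -3.02 in SHR and -4.72, -4.86 and -4.79 in SHRSP. The 6 low arrays are thus SHR at 3 weeks and SHRSP at 6 weeks, and they lie clear of the other 12. SHRSP minus SHR was 2.06 (SE 0.07) at 3 weeks, a 4.17-fold higher signal in SHRSP, and -1.78 (SE 0.07) at 6 weeks, a 3.44-fold lower one.

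Tceal7, the elongation factor-like gene, measured -3.45, -3.26 and -3.24 in WKY at 3 weeks, -4.90, -4.86 and -4.92 in SHR and -3.47, -3.45 and -3.34 in SHRSP. Its values at 6 weeks were -3.38, -3.33 and -3.48 in WKY, -3.38, -3.54 and -3.43 in SHR and -5.04, -4.94 and -5.02 in SHRSP. The same 6 arrays as for Serhl2 are low, while the other 12 overlap one another. SHRSP minus SHR was 1.47 (SE 0.06) at 3 weeks and -1.55 (SE 0.06) at 6 weeks. The second Tceal7 probe, shown above, was well above background on all arrays of the other 4 groups and on 0 of the 6 arrays of SHR at 3 weeks and SHRSP at 6 weeks. By this probe the signal was at least 2.51-fold higher in SHRSP than in SHR at 3 weeks and at least 1.94-fold higher in SHR than in SHRSP at 6 weeks. These bounds set the mean of the brighter group against the lowest signal that an array's probes show when well above background, or the probe's own signal where that is higher.

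Pxmp4, of the peroxisomal membrane, measured -1.26, -1.36 and -1.23 in WKY at 3 weeks, -2.64, -2.79 and -2.75 in SHR and -1.44, -1.51 and -1.39 in SHRSP. At 6 weeks the arrays read -1.74, -1.66 and -1.76 in WKY, -1.90, -1.89 and -1.89 in SHR and -2.76, -3.05 and -2.99 in SHRSP. Low values again mark SHR at 3 weeks and SHRSP at 6 weeks, but here WKY also lies lower at 6 than at 3 weeks. Its difference between the labels was 1.28 (SE 0.07) at 3 weeks and -1.04 (SE 0.07) at 6 weeks, the smallest of the 10 at the later age.

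Myoc, which codes for the secreted protein myocilin, showed the inverse pattern. It measured -5.56, -5.51 and -5.70 in WKY at 3 weeks, -4.22, -4.11 and -4.25 in SHR and -5.70, -5.80 and -5.74 in SHRSP. At 6 weeks the values were -5.25, -5.54 and -5.57 in WKY, -5.82, -5.87 and -6.11 in SHR and -3.95, -3.80 and -3.92 in SHRSP. The SHR arrays at 3 weeks and SHRSP arrays at 6 weeks are high, and the SHR arrays at 6 weeks also lie below all WKY arrays. SHRSP minus SHR was -1.56 (SE 0.09) at 3 weeks and 2.04 (SE 0.09) at 6 weeks, a 4.11-fold higher signal in SHRSP.

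Tnfaip6, the hyaluronan-binding TSG-6, measured -4.13, -4.07 and -4.09 in WKY at 3 weeks, -2.56, -2.72 and -2.71 in SHR and -4.42, -4.44 and -4.54 in SHRSP. At 6 weeks its arrays read -4.86, -4.81 and -4.84 in WKY, -4.71, -4.78 and -4.74 in SHR and -3.01, -3.29 and -3.25 in SHRSP. The high arrays are those of Myoc, and every group but SHRSP was lower at 6 than at 3 weeks. The difference between the labels was -1.80 (SE 0.07) at 3 weeks and 1.56 (SE 0.07) at 6 weeks. Markers of meninges and fibroblasts are given beside Myoc and Tnfaip6. All 11 measured genes of 12 listed were well above background on every array, and their summed level was 6.54 to 6.64 in SHR against 6.35 to 6.45 in SHRSP at 3 weeks, and 6.50 to 6.58 in SHR against 6.96 to 6.99 in SHRSP at 6 weeks. It was 6.06 to 6.18 in WKY at 3 weeks and 6.49 to 6.61 at 6 weeks. From 3 to 6 weeks in WKY, Myoc changed by 0.14 and Tnfaip6 by -0.74. Of the 11 genes 1 was lower in SHRSP than in SHR at 3 weeks and 6 were higher at 6 weeks by the limma fit. Of 7 oligodendrocyte markers 1 was lower at 3 weeks and 5 were higher at 6 weeks. Of 8 neuron markers 1 was lower at 3 weeks and 2 were higher at 6 weeks. At 6 weeks 3 of 6 astrocyte markers were higher and 2 lower, and 3 of 8 choroid plexus markers were higher. Of 8 microglia markers 1 was higher at 3 weeks, and at 6 weeks 1 was higher and 2 were lower. Called at both ages in opposite directions were 1 neuron marker and 1 microglia marker. Over all genes 4.23% were called at 3 weeks and 42.9% at 6 weeks, in either direction. Of the genes called, 52.9% were higher in SHRSP at 3 weeks and 50.7% at 6 weeks. The part of these cell types in the result was not tested. In whole tissue, fewer cells of a type and less RNA per cell cannot be told apart.

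Zap70, the T cell receptor kinase, leads the other set. It measured -3.55, -3.48 and -3.70 in WKY at 3 weeks, -3.57, -3.66 and -3.60 in SHR and -1.91, -1.91 and -2.01 in SHRSP. At 6 weeks the values were -3.70, -3.63 and -3.52 in WKY, -2.10, -2.03 and -2.08 in SHR and -3.67, -3.74 and -3.57 in SHRSP. The SHRSP arrays at 3 weeks and the SHR arrays at 6 weeks are high, and the other 12 arrays overlap. SHRSP minus SHR was 1.67 (SE 0.06) at 3 weeks, 3.19-fold, and -1.59 (SE 0.06) at 6 weeks. Of 8 listed T cell markers 7 were tested and 4 were well above background on every array. Their summed level was -2.31 to -2.0 in SHR and -2.29 to -2.25 in SHRSP at 3 weeks, ranges that overlap, and -1.85 to -1.77 in SHR against -2.16 to -2.06 in SHRSP at 6 weeks; their part in the Zap70 values was not tested.

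Defb17, the beta-defensin, had the largest difference. At 3 weeks it measured -8.78, -9.38 and -9.17 in WKY, -9.86, -8.64 and -8.24 in SHR and -2.27, -2.36 and -2.27 in SHRSP. At 6 weeks it measured -7.75, -8.25 and -9.39 in WKY, -1.86, -1.93 and -2.06 in SHR and -7.65, -9.42 and -7.60 in SHRSP. It was well above background on all arrays of SHRSP at 3 weeks and of SHR at 6 weeks, on 1 of 3 WKY arrays at 6 weeks, and on 0 of 3 in each of the other groups, where low values have no order. As bounds, the signal was at least 43.8-fold higher in SHRSP than in SHR at 3 weeks, and at least 40.0-fold higher than in WKY of that age. At 6 weeks it was at least 41.9-fold higher in SHR than in SHRSP.

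Trappc6a, the vesicle-tethering subunit, belongs to the same set. It measured 0.49, 0.48 and 0.48 in WKY at 3 weeks, 0.61, 0.64 and 0.63 in SHR and 1.93, 1.88 and 1.89 in SHRSP. At 6 weeks it measured 0.57, 0.63 and 0.68 in WKY, 1.79, 1.79 and 1.79 in SHR and 0.62, 0.62 and 0.72 in SHRSP. The high arrays are those of Zap70 and Defb17. Between the labels the difference was 1.27 (SE 0.04) at 3 weeks and -1.13 (SE 0.04) at 6 weeks. Its second probe, shown above, differed by 1.12 (SE 0.05) and -0.88 (SE 0.05), in the same directions, and its SHR and SHRSP arrays did not overlap at either age.

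Lgals7, galectin-7, was low where those 3 genes were high. It measured -3.92, -3.86 and -3.89 in WKY at 3 weeks, -4.17, -3.99 and -4.04 in SHR and -5.38, -5.41 and -5.38 in SHRSP. At 6 weeks the values were -3.77, -3.55 and -3.80 in WKY, -5.02, -5.45 and -5.42 in SHR and -3.89, -3.69 and -3.77 in SHRSP. One SHR array at 6 weeks lies above its replicates and still clear of every WKY and SHRSP array. The difference was -1.32 (SE 0.10) at 3 weeks and 1.52 (SE 0.10) at 6 weeks. Of 8 listed keratinocyte markers 3 were tested and 2 were well above background on every array, and their summed level was -4.27 to -4.07 in SHR and -4.29 to -4.22 in SHRSP at 3 weeks and -3.92 to -3.76 in SHR and -4.07 to -3.81 in SHRSP at 6 weeks, ranges that overlap at both ages.

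Lpar6, the lysophosphatidic acid receptor, measured -1.78, -1.78 and -1.87 in WKY at 3 weeks, -1.98, -1.82 and -1.83 in SHR and -3.20, -3.27 and -3.29 in SHRSP. At 6 weeks it measured -2.10, -2.12 and -2.05 in WKY, -3.13, -3.24 and -3.35 in SHR and -1.90, -1.91 and -1.96 in SHRSP. Its low arrays are those of Lgals7, and SHRSP minus SHR was -1.37 (SE 0.06) at 3 weeks and 1.32 (SE 0.06) at 6 weeks.

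Within slide 2, where 2 arrays of each label share the slide and scan day, the differences at 3 weeks could be read free of the slide. These 4 arrays are among the 6 on which the genes were chosen, so the values are a description and not a check. They were 2.03 for Serhl2, 1.43 for Tceal7, 1.30 for Pxmp4, -1.57 for Myoc and -1.71 for Tnfaip6. In the second set they were 1.72 for Zap70, 6.13 for Defb17 (against SHR arrays at background), 1.27 for Trappc6a, -1.38 for Lgals7 and -1.41 for Lpar6. No slide holds both labels at 6 weeks.

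Set against WKY of the same age, each gene had 1 label near WKY and the other far from it, and which label was near changed with age. Over the 9 genes without Defb17, the 18 near values lay 0.03 to 0.48 from WKY and the 18 far values 1.15 to 1.88. The largest near value was Myoc in SHR at 6 weeks, -0.48, and the smallest far value was Lpar6 in the same group, -1.15. Serhl2 was -1.88 from WKY in SHR at 3 weeks and -1.87 in SHRSP at 6 weeks, and Zap70 was 1.63 in SHRSP at 3 weeks and 1.55 in SHR at 6 weeks. Near and far share their WKY arrays, and a far value holds the difference the genes were chosen on, so these values are described and not tested.

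**Figure D2:**
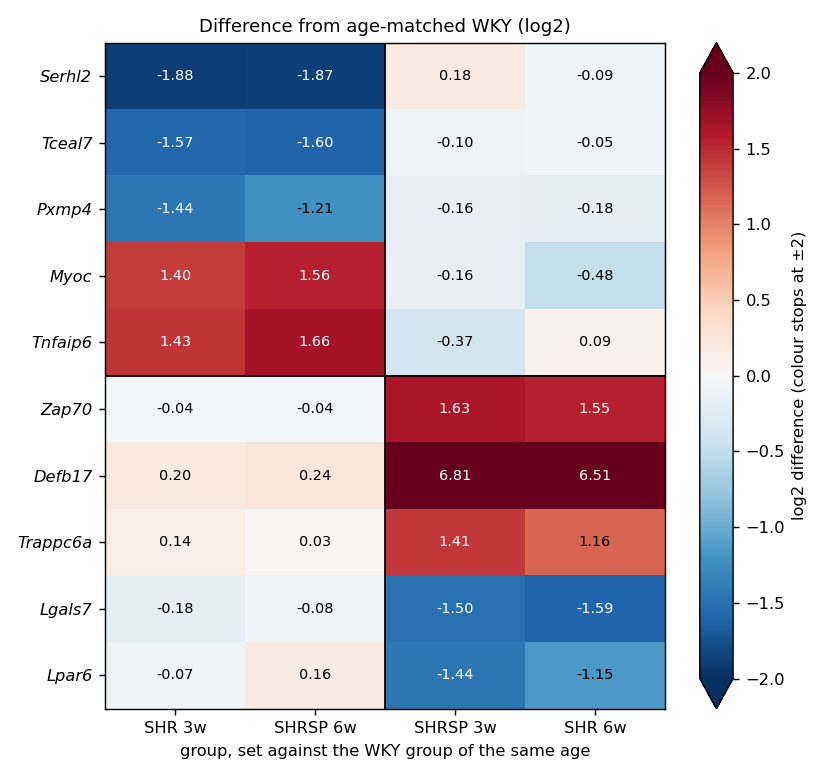
Log2 difference of each gene (rows) from the WKY group of the same age, in the 4 SHR and SHRSP groups (columns; colour stops at ±2). Far values, 1.15 to 1.88 in size without Defb17, fill the 2 left columns for the upper 5 genes and the 2 right columns for the lower 5; the Defb17 values rest on groups at background and are not bounds.

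Age changes read within a label were correspondingly large. Between 3 and 6 weeks the 10 genes changed by 0.83 to 6.97 in SHR (median size 1.49) and by 1.24 to 5.93 in SHRSP (median 1.59). The upper ends are Defb17, whose low groups were at background; without it the largest changes were 2.08 and 1.88. In WKY the change was 0.04 to 0.74 (median 0.18). Set across the labels, SHR at 6 weeks differed from SHRSP at 3 weeks by 0.01 to 0.45 (median 0.12), and SHRSP at 6 weeks from SHR at 3 weeks by 0.03 to 0.69 (median 0.19). For these 10 genes, then, the arrays labelled SHR at 3 weeks sit with those labelled SHRSP at 6 weeks, and the arrays labelled SHRSP at 3 weeks with those labelled SHR at 6 weeks. Whether the strain names of one age are exchanged was not tested, and the labels and file headers do not settle it, so each value is given under the label it was deposited with.

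**Figure D3:**
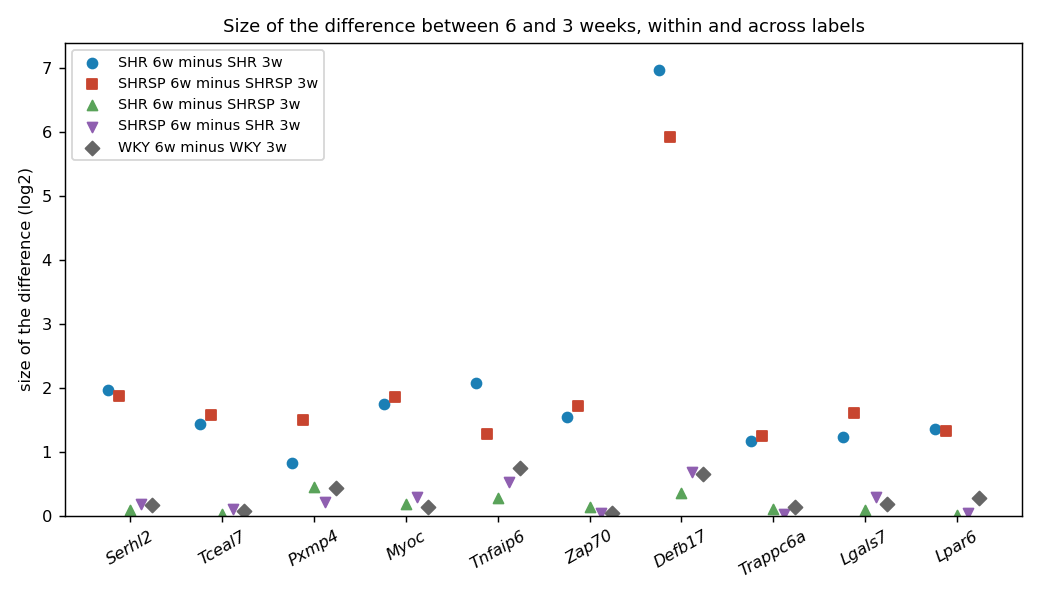
Size of the log2 difference between 6 and 3 weeks (vertical axis, from 0) for each gene (horizontal axis), within SHR, SHRSP and WKY and across the SHR and SHRSP labels. Changes within SHR and SHRSP, with medians of 1.49 and 1.59, lie above those within WKY (0.18) and across the labels (0.12 and 0.19).

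The rule did not use the WKY arrays, so their age change could be tested. Tnfaip6 was lower at 6 than at 3 weeks by 0.74 in size (-0.74, SE 0.07, limma adjusted p = 9.95e-06), Pxmp4 by -0.44 (SE 0.07, limma adjusted p = 2.83e-04) and Lpar6 by -0.28 (SE 0.06, limma adjusted p = 0.00159). Trappc6a was higher by 0.14 (SE 0.04, limma adjusted p = 0.00549) and Serhl2 by 0.17 (SE 0.07, limma adjusted p = 0.0488). These 5 of 10 genes passed, against 44.1% of all genes, and the other 5 gave Zap70 -0.04, Tceal7 -0.08, Myoc 0.14, Lgals7 0.19 and Defb17, at background on most of these arrays, 0.65. The second Trappc6a probe did not show the rise (0.00, SE 0.05), and the Serhl2 call was lost under 17 of 28 alternatives (limma adjusted p from 0.0132 to 0.791). WKY at 3 and at 6 weeks lie on slides 1 and 3. With slide as a fixed block in limma 0 of 10 genes passed, where 698 of all 21206 genes did. Of the 10, 3 had an unadjusted limma p under 0.05, and Tnfaip6 was at -0.48 (limma adjusted p = 0.0762).

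The mean of the SHR and SHRSP groups, set against WKY, lies midway between a near and a far value for each gene. Serhl2, for example, gave -0.85 at 3 weeks and -0.98 at 6 weeks, and Lpar6 -0.76 and -0.49. This mean carries the far value on which the genes were chosen, so it is given without a test.

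From 3 to 6 weeks the mean of both labels changed in 3 of 10 genes, against 50.4% of all genes. No slide holds SHR or SHRSP arrays of both ages, so in this mean age and slide cannot be told apart. Tnfaip6 fell by 0.40 on the log2 scale (SE 0.05, limma adjusted p = 2.66e-05) and Pxmp4 by 0.33 (SE 0.05, limma adjusted p = 1.46e-04), both in the direction they took in WKY, while Lgals7 rose by 0.19 (SE 0.07, limma adjusted p = 0.0362). Averaged over labels, the other 7 genes gave -0.09 for Zap70, -0.07 for Tceal7, 0.06 for Myoc, -0.02 for Lpar6, 0.52 for Defb17, 0.04 for Serhl2 and -0.04 for Trappc6a. At each age the Defb17 mean holds a group at background, so its value is not a measured change. Of the genes called for this change, 75.8% were raised, and 44.3% under quantile scaling, which put Lgals7 at 0.01 (limma adjusted p = 0.956). The Lgals7 call was lost under 12 of 27 alternatives, 8 of them with 1 array left out, with limma adjusted p from 0.0193 to 0.956. The age change of this mean differed from that of WKY in 3 genes (35.7% of all genes passed), Tnfaip6, Lpar6 and Trappc6a, by 0.34 or less in size; each of the 3 calls was lost under 2 of 26 alternatives.

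Over all genes, 898 differed between SHRSP and SHR at 3 weeks (4.23%) and 9096 at 6 weeks (42.9%). Both ages called 585 genes, 486 of them in opposite directions (2.29%) and 99 in the same direction. At least 2-fold at both ages were 52 genes, of which 47 turned over (0.222%), 29 of them with an established symbol, and 5 did not. All 10 genes described here are among the 47, having been chosen for turning over, and they are not the whole of it. By the size of the turn among the 486 genes, Defb17 ranked 3 and the rest from 17 (Serhl2) to 39 (Pxmp4).

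**Figure D4:**
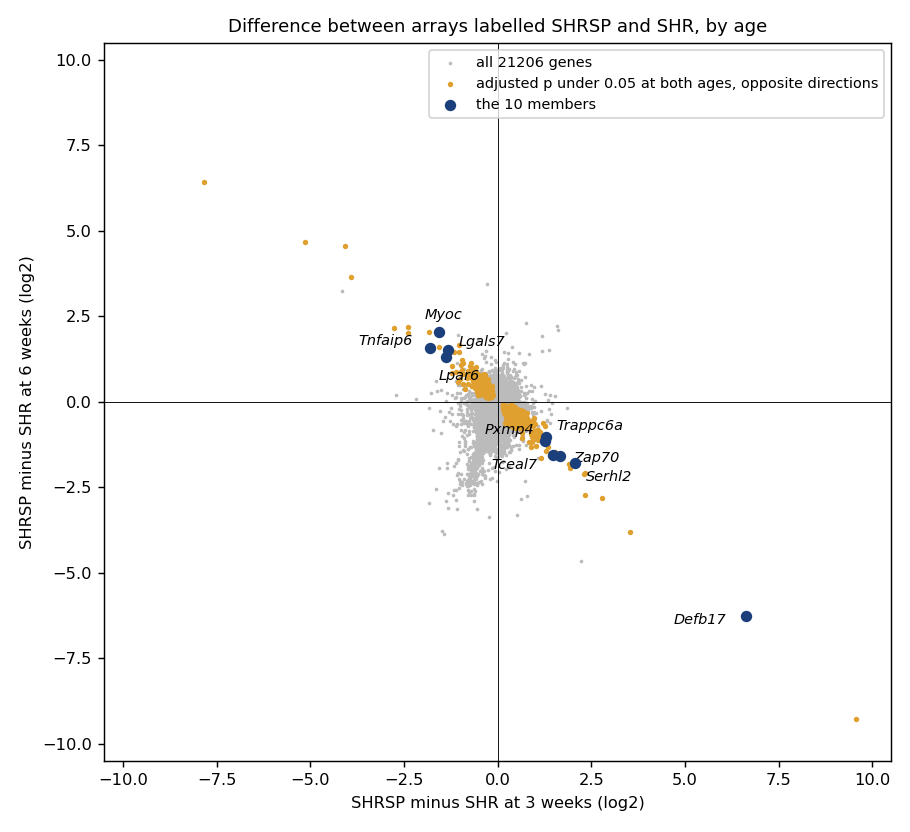
SHRSP minus SHR at 3 weeks (horizontal axis, log2) against the same difference at 6 weeks (vertical axis, log2) for all 21206 genes, with the 486 genes called at both ages in opposite directions and the 10 genes described here in colour. The 10 lie in the upper left and lower right of the plot, Defb17 farthest out among them at fitted values of 6.61 and -6.28, which rest on groups at background.

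Genes beside these on the chromosome were counted as well. Within 1 Mb of the 9 placed probes lay 290 other tested genes. Of these, 37 differed between SHRSP and SHR at 3 weeks (12.8%, against 4.23% of all genes), 149 at 6 weeks (51.4%, against 42.9%), and 21 at both ages in opposite directions (7.24%, against 2.29%). The windows of Serhl2, Lgals7 and Trappc6a held 29 of the 37 genes called at 3 weeks and 19 of the 21 that turned over, among 169 genes (17.2% and 11.2%). In the other 6 windows 8 of 121 genes were called at 3 weeks (6.61%) and 2 turned over (1.65%). This split of the windows was not planned, and the windows differ in size, so nothing is read from it. In the small windows of Lpar6 and Defb17, 2 of 10 and 1 of 8 genes were called at 3 weeks, and 1 in each turned over. Fitted on the groups compared alone, the count at 3 weeks was 17 of 290; the share over all genes in that fit is not given here. With slide as a random block the count at 6 weeks was 95 of 290, where 4757 of all 21206 genes (22.4%) were called.

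Of the 18 nearest measured genes, 1 on each side of the 9 probes, 1 turned over, Rb1, and 7 differed at 6 weeks. Rrp7a, a ribosome biogenesis gene whose probe lies 0.185 kb from that of Serhl2, differed by -0.06 (SE 0.04) at 3 weeks and 0.19 (SE 0.04, limma adjusted p = 0.00221) at 6 weeks, and Poldip3, on the other side, by -0.03 and 0.20. Tmem131, 5.60 kb from Zap70, differed by 0.10 and -0.01. Beside Tceal7, Bex1 gave -0.10 and 0.10 (limma adjusted p = 0.0426 at 6 weeks) and Tceal9 -0.05 and 0.04, against 1.47 and -1.55 for Tceal7 itself. The Bex1 call was lost under many alternatives. Among them were quantile scaling (0.02, limma adjusted p = 0.713) and slide as a random block (0.10, limma adjusted p = 0.182). Vamp4 beside Myoc gave 0.07 and 0.01, E2f1 beside Pxmp4 0.13 and 0.06, and Capn12 beside Lgals7 -0.20 and 0.21, with none of these called at either age. On the other sides of Zap70 and Lgals7, Actr1b gave 0.00 and 0.18 (limma adjusted p = 0.00175 at 6 weeks) and Ech1 -0.13 and 0.34 (limma adjusted p = 6.18e-05 at 6 weeks).

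Some neighbours did turn over. Rb1, the retinoblastoma tumour suppressor, whose intron holds LPAR6 in the human genome, has its probe 47.5 kb from that of Lpar6. It moved against Lpar6, by 0.32 at 3 weeks (SE 0.06, limma adjusted p = 0.00233) and -0.41 at 6 weeks (SE 0.06, limma adjusted p = 1.20e-04); fitted on the groups compared alone the value at 3 weeks had a limma adjusted p of 0.0809. Itm2b, on the other side of Lpar6, gave 0.01 at both ages. Tfap2b, a transcription factor gene 961 kb from Defb17, differed by -0.48 (SE 0.07, limma adjusted p = 8.11e-04) and 0.57 (SE 0.07, limma adjusted p = 6.72e-05), against the direction of Defb17. Farther from the probes, and singled out after their values were seen, Ttll1 (295 kb from Serhl2) gave 1.04 and -0.84, Ryr1 (147 kb from Lgals7) -0.89 and 0.38, Fam98c (316 kb from Lgals7) -0.69 and 0.99, and Ceacam16 (297 kb from Trappc6a) -1.02 and 1.47. The mean of all Ryr1 probes gave 0.12 at 6 weeks, which was not called. Ttll1, Ryr1 and Fam98c moved in the direction of the gene beside them and Ceacam16 against Trappc6a. In the window of Trappc6a 10 genes turned over, some in its direction and some against it. Those with the largest differences have no established symbol. The gene at 672 kb gave 3.54 and -3.81, in the direction of Trappc6a, and the gene at 611 kb gave -1.76 and 1.64, against it.

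**Figure D5:**
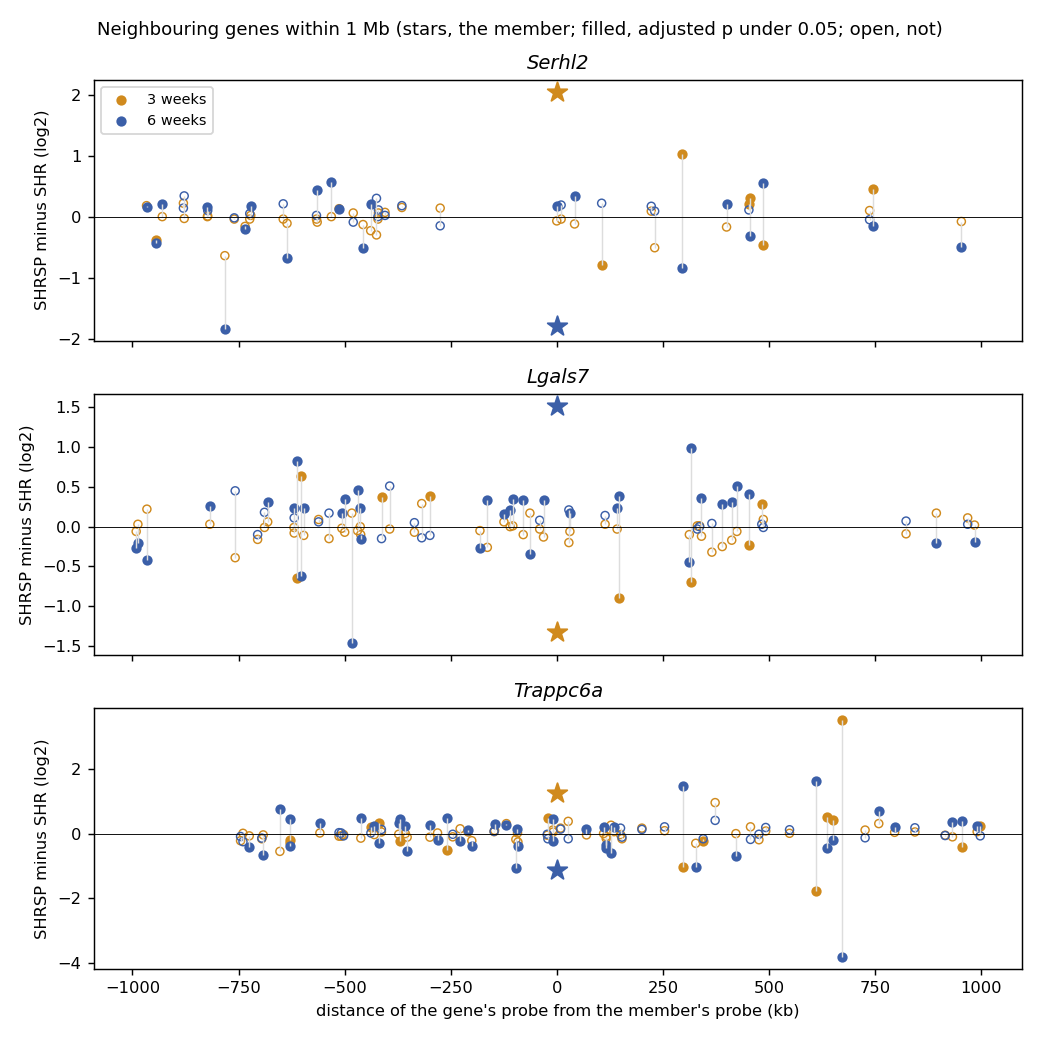
SHRSP minus SHR (vertical axis, log2) of every tested gene within 1 Mb of the Serhl2, Lgals7 and Trappc6a probes against the distance between probes (horizontal axis, kb), with grey lines joining the 2 ages of a gene. Neither gene next to each of these 3 probes is called at both ages in opposite directions, while single genes farther out are, such as Ttll1 at 295 kb from Serhl2 (1.04 and -0.84).

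Relatives of the 10 genes in family and pathway were taken from 9 lists, which were drawn up with earlier results of these data known. They held 133 genes, of which 104 were tested. At 3 weeks 1 of them differed between SHRSP and SHR (0.962%, against 4.23% of all genes) and at 6 weeks 40 did, 24 raised and 16 lowered (38.5%, against 42.9%). Of all genes called at 6 weeks, 50.7% were raised. With slide as a random block in limma the 40 became 16 (15.4%, against 22.4% of all genes), and the counts by list below are those without this block. The median difference of the 104 genes was 0.00 and 0.03, against 0.00 and 0.01 over all genes. The 1 gene was Lpar3, another lysophosphatidic acid receptor, at 0.90 (SE 0.09, limma adjusted p = 1.86e-05) at 3 weeks and -0.88 (SE 0.09, limma adjusted p = 1.44e-05) at 6 weeks, against the direction of Lpar6.

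By list, none of the 13 tested genes of T cell receptor signalling was called at 3 weeks and 3 were lowered at 6 weeks. Of 8 Tceal and Bex genes 5 were raised at 6 weeks, among them Bex3 at 0.37 (SE 0.05, limma adjusted p = 1.29e-04), where Tceal7 was lower in SHRSP. Of 13 TRAPP subunits 6 were raised, with Trappc5 at 0.33 (SE 0.06, limma adjusted p = 7.72e-04), and of 19 peroxisomal membrane genes 5 were raised and 1 lowered, with Pex16 at 0.37 (SE 0.05, limma adjusted p = 8.95e-05). Among 8 galectins 2 were raised and 1 lowered, with Lgals3 at 0.39 (SE 0.07, limma adjusted p = 0.00108), and none of Bex3, Trappc5, Pex16 and Lgals3 was called at 3 weeks. The 17 hyaluronan matrix genes had 1 raised and 4 lowered, the 9 beta-defensins 1 raised and 3 lowered, the 7 genes of the myocilin and olfactomedin family 2 and 2, and the 10 of lysophosphatidic acid signalling 2 and 2.

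Over the 18 arrays the genes of a set followed one another, which the choice of genes favours. The size of Pearson's r was 0.773 to 0.984 for the 10 pairs of the first set, 0.945 to 0.991 for the 10 pairs of the second and 0.315 to 0.640 for the 25 pairs between sets; all points share arrays and scaling. The named gene most like Zap70 was Trappc6a (r = 0.991) and most like Serhl2 and Tceal7 was Vegfb (0.995 and 0.994), whose probe was not well above background in at least 1 group. Myoc was most like Tnnt1 (0.984), Tnfaip6 most like Nid2 (0.960) and Pxmp4 most like Gpatch11 (0.959). Defb17 was most like Zfp597 (0.985), Lpar6 most like Haghl (0.986) and Lgals7 most like Zfp14 (0.986). Next after Zfp14 came Agtrap (0.974), whose product binds the angiotensin II receptor, and Nppa (0.964), the atrial natriuretic peptide gene, both on chromosome 5. Further matches of the other genes described here are not listed. SHRSP minus SHR was -4.06 and 4.56 for Agtrap and -1.17 and 1.47 for Nppa. With the 12 SHR and SHRSP arrays alone, the 3 genes most like Lgals7 were Zfp14, Myoc and Irgq, so neither came up again for it. Taking 3 for each gene described here gave 30 pairs with 24 distinct genes, and 9 of the pairs came up again when the 12 SHR and SHRSP arrays were used alone.

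Promoter sequences of all 10 genes were found in RefSeq on the GRCr8 build, and the 250 bases upstream of the listed start were searched on both strands. TATAAA was found in 2 of the 10 (Defb17 and Myoc), and in 12.9% of 33469 promoters. CCAAT was found in 4 (34.0% of all), GGGCGG in 3 (30.5%) and CACGTG in 1 (5.59%). No motif among these was shared by a whole set, and a match is a description, not a site. The 2 sequences with TATAAA are shown because they are the gene with the largest difference and the one with the largest at 6 weeks among the rest, with TATAAA and CCAAT in capitals; TATAAA begins 31 bases before the start in Defb17 (chr9:28380422-28380671, minus strand) and 26 before it in Myoc (chr13:77509713-77509962).
Defb17, upstream: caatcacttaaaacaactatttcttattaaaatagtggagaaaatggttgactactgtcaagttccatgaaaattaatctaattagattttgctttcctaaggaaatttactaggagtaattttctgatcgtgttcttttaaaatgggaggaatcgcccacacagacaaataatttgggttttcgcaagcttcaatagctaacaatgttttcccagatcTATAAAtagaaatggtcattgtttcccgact
Myoc, upstream: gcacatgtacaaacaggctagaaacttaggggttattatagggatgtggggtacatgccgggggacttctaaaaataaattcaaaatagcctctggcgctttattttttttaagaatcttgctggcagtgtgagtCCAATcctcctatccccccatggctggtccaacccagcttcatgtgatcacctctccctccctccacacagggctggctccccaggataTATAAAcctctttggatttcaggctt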

How the data were processed

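Per the file headers, the authors scanned 1 dye per array and deposited 1 intensity per spot from Agilent Feature Extraction 10.5.1.1, which subtracted a fitted background surface, removed a multiplicative spatial trend and put surrogates in place of low values, with no scaling between arrays; the series table repeats these deposited values. Coordinates are on rn4. Here log2 intensity minus the array's 75th percentile was used, without control spots and outlier flags (0.445% to 1.49% of spots). Probes well above background on all 3 arrays of at least 1 group were kept (24285 of 30367), and the brightest stood for its gene. RefSeq gave current symbols through each probe's accession. One limma 3.58.1 fit (R 4.3.3) over 6 group means had 12 residual degrees of freedom; p-values are two-sided, Benjamini-Hochberg adjusted over 21206 genes, and a gene was called under 0.05. The fit was tested on simulated data. Replicates are biological per the labels.

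The 10 genes, the related lists and the cell markers were chosen with earlier results of these data known. Named beside them were the nearest measured gene on each side, up to 3 nearest called genes within 1 Mb, up to 3 called genes per list and the 3 genes of highest correlation; the text gives part of these. Same-numbered replicates did not deviate together (18 pairs, r from -0.131 to 0.0717), so numbers were not taken as pairs. Alternatives were quantile scaling, normexp background correction, no filter and a stricter filter on dim probes, flagged spots kept, the mean of a gene's probes, slide as a fixed or random block (consensus correlation 0.273), a replicate block, fits on the groups compared alone, other window sizes and each array left out. Plots were drawn with matplotlib. A planned test of the mean of SHR and SHRSP against WKY was dropped, because that mean carries the difference the genes were chosen on.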

Additional observations from a re-analysis of the deposited data

Results flagged for a closer look

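The age change of the mean of SHR and SHRSP differed from that of WKY in 3 of the 10 genes, against 35.7% of all genes, in a comparison chosen after seeing the data. Tnfaip6 fell less in the mean than in WKY, with a difference of 0.34 (SE 0.08, limma adjusted p = 0.00434), and Lpar6 gave 0.26 (SE 0.07, limma adjusted p = 0.0102). Trappc6a gave -0.18 (SE 0.04, limma adjusted p = 0.00545). No slide holds SHR or SHRSP arrays of both ages, so age and slide cannot be told apart in this comparison. Each call was lost under 2 of 26 alternatives. For Tnfaip6 these were quantile scaling (0.16, limma adjusted p = 0.0886) and slide as a random block (0.29, limma adjusted p = 0.0841). Lpar6 lost its call with quantile scaling (0.15, limma adjusted p = 0.0936) and normexp (0.12, limma adjusted p = 0.162), and Trappc6a with the mean of both probes (-0.10, limma adjusted p = 0.0801) and slide as a random block (-0.18, limma adjusted p = 0.0569).

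For neighbours and relatives, the change of the SHRSP minus SHR difference from 3 to 6 weeks was tested as an interaction, which passed for 18.1% of all genes. Over genes that turned over it was -0.74 for Rb1, 1.05 for Tfap2b, -1.78 for Lpar3, -1.88 for Ttll1, 1.27 for Ryr1, 1.68 for Fam98c and 2.49 for Ceacam16. Smaller changes passed for Rrp7a (0.25), Actr1b (0.19), Bex1 (0.20), Ech1 (0.47), Bex3 (0.45), Pex16 (0.37), Lgals3 (0.39) and Trappc5 (0.30). These 15 of 22 named genes were partly chosen for their calls, and at 6 weeks label and slide cannot be told apart.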

How the results depend on the processing

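All 10 differences between the labels kept opposite signs at the 2 ages under every alternative that gave both ages. Only Defb17 drops out (9 genes) where a probe must be well above background on all 18 arrays. Slide as a fixed block gave no difference at 6 weeks, where label and slide cannot be told apart. The genes were chosen on these signs, so this is a description. Of the values of these differences 518 moved by less than the spread between replicates and 30 by more. Of the 30, 18 came with normexp, which shrank Tceal7 to 0.92 and -1.04 and Myoc to -0.83 and 1.06. For the age change in WKY, the count of 5 became 8 with normexp and 2 with the replicate block (Pxmp4 and Tnfaip6). It was 0 with slide as a fixed block, where 698 of all genes passed, and 4 to 5 with an array left out. For the mean of both labels between ages, 3 became 5 with quantile scaling and 5 with normexp, and 2 to 3 with an array left out. Among neighbours, 37 at 3 weeks became 17 on the groups compared alone and 27 to 38 with an array left out, and windows of 5 Mb held 83 of 1015 (8.18%). At 6 weeks 149 became 95 with slide as a random block, where 22.4% of all genes were called, and 121 to 159 with an array left out. Among relatives, 1 at 3 weeks became 2 with the mean of probes and 2 with slide as a fixed block (1 to 2 with an array left out). There 40 at 6 weeks became 16 with slide as a random block and 26 to 43 with an array left out, 26 without the second SHRSP array. Losses in the difference of age changes are given with it above. The cause of these shifts was not tested. Signals at background limit Defb17 and the second Tceal7 probe to bounds.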
